A study of Mus musculus with 12 samples.

Results

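A set of 10 genes known from germ cells and pluripotent cells was followed in sorted gonadal somatic cells of mouse embryos: Pou5f1, Nanog, Dppa5a, Dppa3, Utf1, Sall4, Kit, Ifitm3, Dazl and Ddx4. They were chosen by name, with earlier results of these data known. Every probe set annotated to 1 of them alone was taken, which gave 15 probe sets of 45037 tested, and 10 genes of 18193 with a probe set of their own. The samples were cells positive for an enhanced green fluorescent protein driven by the promoter of Sf1 (Nr5a1), the steroidogenic factor of the early gonad, and they were collected by fluorescence-activated sorting. The 4 groups were females at 10.5 days post coitum (dpc), males at 10.5 dpc, females at 11.5 dpc and males at 11.5 dpc, with 3 arrays each, and all carried the same reporter. No treatment or other allele is named in the labels, and the strain is not given there. A reporter driven by a promoter marks the cells in which that promoter is active, so the sort defined the cells by the reporter and not by lineage. The deposited values are intensities on a linear scale. Changes are differences of log2(intensity + 1), which understates the change of dim genes, with the standard error (SE) of the contrast and the p-value of limma, adjusted by the Benjamini-Hochberg method over all probe sets of the comparison; those under 0.05 are called.

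In the mouse, primordial germ cells arise outside the gonad, migrate through the hindgut and its mesentery, and settle in the genital ridge at about the stages sampled here. While migrating they keep a set of pluripotency genes active, among them Pou5f1 (Oct4) and Nanog, which encode transcription factors of the pluripotent state, and Dppa3 (Stella), which protects DNA methylation in the early embryo. After they reach the ridge they start genes of a later germ cell programme such as Dazl and Ddx4 (Vasa), which encode RNA-binding and RNA helicase proteins, and they lose the pluripotency genes later on. Somatic cells of the gonad do not normally use these genes at high levels, whereas Kit and Ifitm3 are also known from other cells, Kit from blood progenitors and pigment cell precursors and Ifitm3 from many tissues as an interferon-inducible gene.

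The sorted cells carried the somatic gonadal genes in all 4 groups. None of 6 listed somatic genes (Nr5a1, Wt1, Gata4, Lhx9, Emx2 and Cbx2) had a group mean under 50, and Nr5a1 itself stood at 378 and 625 in females and males at 10.5 dpc and at 549 and 748 at 11.5 dpc. The summed intensity of 3 Y-linked genes was 25.9 to 28.4 in females at 10.5 dpc, 81.8 to 85.5 in females at 11.5 dpc, 3030 to 3410 in males at 10.5 dpc and 2160 to 2380 in males at 11.5 dpc. The rise within females lay mainly in Eif2s3y (9.8 to 64.7), was present on all 3 arrays of females at 11.5 dpc, and its part in any result below was not tested. Arrays of the same group had a Pearson r of 0.9981 to 0.9988 over the probe sets. The actin control's 3′ signal divided by its 5′ signal, a measure of how far the RNA or its amplified copy reached, was 5.19 to 5.41 in females at 10.5 dpc, 9.89 to 9.93 in males at 10.5 dpc, 9.9 to 10.1 in females at 11.5 dpc and 7.4 to 7.68 in males at 11.5 dpc. The same ratio of the Gapdh control was 2.58 to 2.77 in females and 4.56 to 4.78 in males at 10.5 dpc. At 11.5 dpc it was 3.82 to 3.93 in females and 4.19 to 4.2 in males. The labels do not tell whether a group's arrays stem from different embryos or litters, so p-values measure array-to-array spread alone, and this can be technical.

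Among the promoters of these genes, those of the later germ cell genes held the most CpG, the dinucleotide at which vertebrate DNA is methylated. RefSeq's table for build GRCm38.p6 held 7 of the 10 genes (Pou5f1, Nanog, Utf1, Kit, Ifitm3, Dazl and Ddx4), each with 250 bases before and 50 after the start site; where a gene had several starts, as Pou5f1, Nanog and Kit did, the most upstream one was used. The sequences of 5 of them are given because they set Pou5f1 and Nanog, which fell with age in females, beside Utf1 and Dazl, which rose in both sexes, and Ddx4, which went opposite ways in the sexes. Each reads 5′ to 3′ on the strand of the gene, with every CpG in capitals.
Pou5f1 promoter, chr17:35505782-35506081, plus strand: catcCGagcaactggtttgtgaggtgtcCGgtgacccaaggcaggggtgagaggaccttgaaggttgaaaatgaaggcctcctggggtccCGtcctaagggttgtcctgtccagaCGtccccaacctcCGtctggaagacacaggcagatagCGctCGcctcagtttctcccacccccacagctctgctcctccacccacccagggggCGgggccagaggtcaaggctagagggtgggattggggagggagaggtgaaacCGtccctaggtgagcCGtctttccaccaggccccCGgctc
Nanog promoter, chr6:122707239-122707538, plus strand: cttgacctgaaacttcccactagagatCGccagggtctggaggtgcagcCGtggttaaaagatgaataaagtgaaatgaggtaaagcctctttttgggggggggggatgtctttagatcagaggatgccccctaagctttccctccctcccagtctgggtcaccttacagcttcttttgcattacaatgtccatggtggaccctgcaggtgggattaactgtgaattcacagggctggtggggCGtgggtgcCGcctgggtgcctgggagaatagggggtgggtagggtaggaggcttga
Utf1 promoter, chr7:139943606-139943905, plus strand: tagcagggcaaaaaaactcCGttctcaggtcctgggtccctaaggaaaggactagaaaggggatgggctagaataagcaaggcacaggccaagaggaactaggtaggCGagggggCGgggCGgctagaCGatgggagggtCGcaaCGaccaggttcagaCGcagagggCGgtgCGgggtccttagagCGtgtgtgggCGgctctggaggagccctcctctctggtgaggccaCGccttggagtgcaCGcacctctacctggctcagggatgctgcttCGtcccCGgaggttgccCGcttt
Dazl promoter, chr17:50293571-50293870, minus strand: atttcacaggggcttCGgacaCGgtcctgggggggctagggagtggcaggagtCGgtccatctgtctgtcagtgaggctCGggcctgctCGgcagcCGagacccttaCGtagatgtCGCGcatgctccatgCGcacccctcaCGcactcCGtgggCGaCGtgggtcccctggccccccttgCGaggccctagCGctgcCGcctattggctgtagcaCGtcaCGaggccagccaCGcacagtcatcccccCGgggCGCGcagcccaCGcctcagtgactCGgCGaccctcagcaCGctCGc
Ddx4 promoter, chr13:112652261-112652560, minus strand: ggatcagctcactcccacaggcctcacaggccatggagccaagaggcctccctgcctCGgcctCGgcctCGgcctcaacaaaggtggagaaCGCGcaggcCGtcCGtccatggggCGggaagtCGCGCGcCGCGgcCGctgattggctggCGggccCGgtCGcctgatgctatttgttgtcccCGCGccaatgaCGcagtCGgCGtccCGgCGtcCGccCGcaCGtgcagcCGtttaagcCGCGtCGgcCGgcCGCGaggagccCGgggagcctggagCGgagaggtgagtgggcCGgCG

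Ddx4 had 38 CpGs in this window and Dazl 28, against 17 for Utf1, 11 for Pou5f1 and 4 for Nanog. The observed CpG count divided by that expected from the C and G content was 0.978 for Ddx4, 0.795 for Dazl, 0.621 for Kit, 0.615 for Utf1, 0.374 for Pou5f1, 0.238 for Ifitm3 and 0.192 for Nanog, and the median of all 32851 promoters in the table was 0.384. Ddx4 lay above 92.8% and Dazl above 78.7% of these promoters, whereas Nanog lay above 27.5%. Of the motifs searched on both strands, the GC box GGGCGG was in the windows of Pou5f1, Utf1 (4 matches, 2 of them sharing a base), Kit, Ifitm3 and Ddx4, and in 35.7% of all promoters. Ddx4 alone of the 7 held the E-box CACGTG (7.15% of all promoters), beginning at an offset of -29 from the start site, and the E2F6-type motif GGCGGGAA (2.19%), at -137, where it overlaps a GC box. The octamer ATGCAAAT (1.74%), which POU factors can bind, the steroidogenic factor 1 element CAAGGTCA (1.56%) and TATAAA (13.6%) were in none of the 7 windows. Exact strings alone were searched, so a variant spelling of a site was not counted. The absence of a match therefore does not show the absence of a site. These matches describe the letters only, and neither methylation nor binding was measured.

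At 10.5 dpc the transcription factor genes of pluripotency and the early germ cell markers were higher in females than in males. Pou5f1 (probe set 1417945_at) had intensities of 247, 193 and 225 in females and of 44.1, 33.7 and 47.2 in males. Every female array lay above every male array, and the male arrays were near the middle of the whole table, with 49.8% of probe sets at or below the male mean. The difference was -2.39 ± 0.12 on the log2 scale (5.25-fold, adjusted p = 1.4e-07). Nanog (1429388_at), its partner in the pluripotency network, was dim throughout, at 32.4, 31.1 and 32.7 in females and 11.3, 13.1 and 13.2 in males, and its highest group mean was under 50. These groups did not overlap, and the change was -1.29 ± 0.12 (adjusted p = 1.2e-05). Sall4 (1424152_at), a zinc finger factor that sustains Pou5f1 expression, stood at 248, 259 and 232 in females and 170, 171 and 172 in males. Its difference of -0.52 ± 0.077 (adjusted p = 3.0e-04) was the smallest of the 10.

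The early germ cell markers outside this network showed the same order at 10.5 dpc. Dppa5a (1416552_at), which encodes a KH-domain RNA-binding protein of pluripotent and germ cells, read 1750, 1710 and 1790 in females and 363, 433 and 356 in males. The male arrays reached 22% of the female mean, a change of -2.19 ± 0.069 (adjusted p = 1.0e-08). Dppa3 (1424295_at) read 491, 460 and 453 in females and 123, 97.8 and 120 in males. Its change was -2.04 ± 0.14 (adjusted p = 9.1e-07), with no overlap. Utf1 (1416899_at), a chromatin-bound factor of embryonic stem cells and early germ cells, was dimmer, at 43.6, 48 and 60.3 in females and 17.9, 17.7 and 25.2 in males. The groups were apart here too, by -1.29 ± 0.19 (adjusted p = 3.3e-04).

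The genes with wider expression and the later germ cell genes were also lower in males at this age. Kit (1452514_a_at), the receptor through which Kit ligand supports germ cell survival and migration, read 396, 431 and 505 in females and 164, 165 and 155 in males (-1.44 ± 0.14, adjusted p = 1.3e-05). Ifitm3 (1423754_at, also known as Fragilis), a membrane protein found early in germ cell formation, read 948, 882 and 804 against 258, 287 and 282 (-1.67 ± 0.063, adjusted p = 2.5e-08). Both genes were without overlap between the sexes. Dazl (1449502_at) was low in both sexes, with 36.8, 42.6 and 48 in females and 24.9, 22.1 and 28.5 in males (-0.73 ± 0.13, adjusted p = 0.0013). Ddx4 (1427242_at) read 128, 142 and 184 in females and 53.3, 41.1 and 65.1 in males (-1.50 ± 0.18, adjusted p = 5.8e-05). The least bright female array of each gene was above the brightest male array.

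Counted by the probe set that represents each gene, 10 of the 10 genes were lower in males at 10.5 dpc and 0 higher, and 8 of them at least 2-fold lower. A dimmer probe set of Kit, of Sall4 and of Utf1 did not pass. Over all 18193 genes, 22.8% were called lower and 17.5% higher, and 564 were at least 2-fold lower. The median change of the 10 was -1.47, beside 0.01 for all genes. Because the 10 were chosen with earlier results of these data known, the values over all genes give a scale and no independent test. Each left-out array and each other setting kept all members tested called in this direction. Markers of other cell types moved the same way between the same arrays. Of 10 endothelial genes 7 were lower in males and 0 higher, with summed intensities of 1770 to 1870 in females and 685 to 818 in males, while Pecam1, Cdh5, Tek and Tie1 had means under 50 in both. Of 7 neural genes 6 were lower and 0 higher, with sums of 7620 to 7950 and 2010 to 2140. Of 12 genes of blood and its progenitors 4 were lower and 0 higher, with sums of 6630 to 7100 and 1470 to 1580. The 4 were Cd34 and the globin genes Hbb-y, Hba-x and Hbb-bh1. These globins made up most of the sums, with means of 2260, 724 and 3370 in females and 288, 142 and 740 in males. Of the 12, 7 had means under 50 in both sexes, Ptprc, Gata1 and Myb among them. The somatic gonadal genes went the other way, with 5 of 6 higher in males and 0 lower. Their sums were 12700 to 13000 in females and 15700 to 15800 in males. The part that these cells, or the 3′ to 5′ ratio, had in the result was not tested. In a sorted population, fewer cells of a type and less RNA per cell cannot be told apart.

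**Figure D1:**
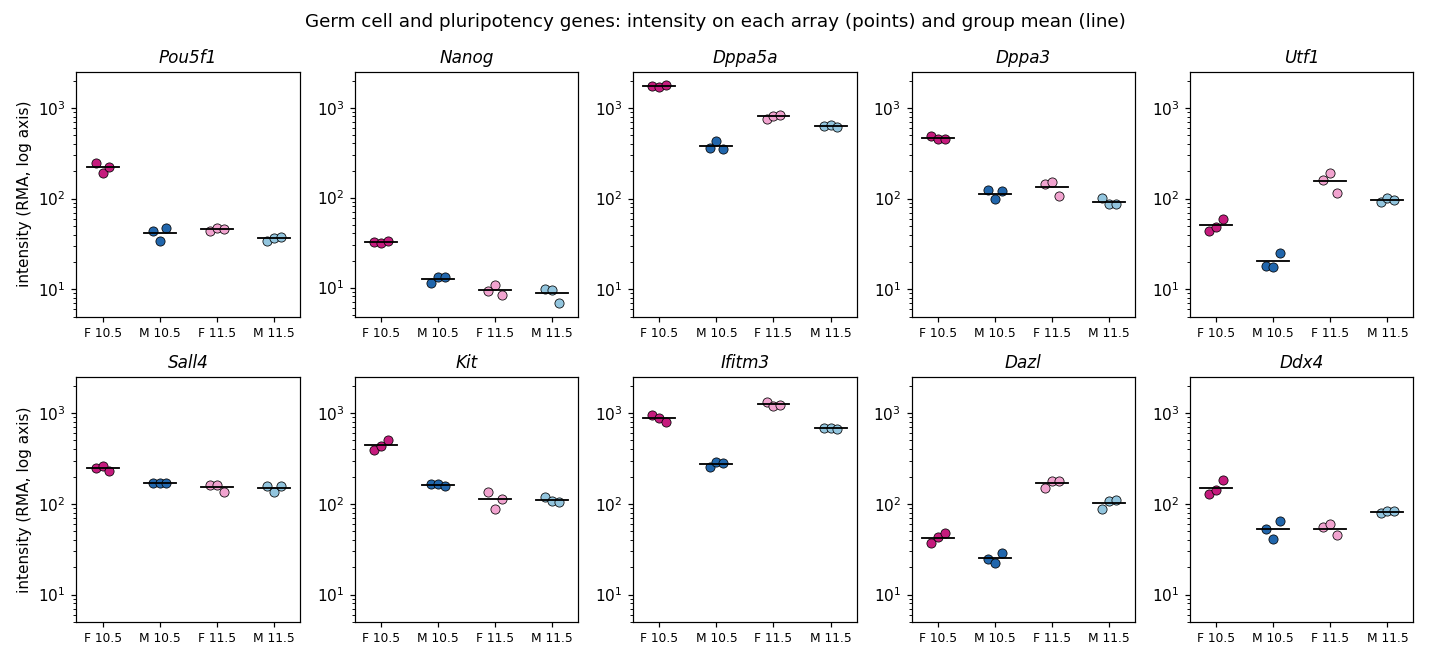
Intensity of the probe set that represents each of the 10 genes (vertical, log axis) in the 4 groups (horizontal; F female, M male, age in dpc), with 1 point per array and a line at the mean of 3 arrays. Pou5f1, Nanog, Dppa5a, Dppa3, Sall4, Kit and Ddx4 had their highest mean in females at 10.5 dpc, and Utf1, Ifitm3 and Dazl in females at 11.5 dpc.

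Over the following day in females, the pluripotency genes fell while Dazl and Utf1 rose. The arrays of females at 10.5 dpc enter both this comparison and the one between the sexes at that age, so these comparisons are not independent of each other. Pou5f1 went to 44.5, 47.1 and 46.1 at 11.5 dpc, a fall to 20.7% of the earlier mean (-2.24 ± 0.12, adjusted p = 9.1e-08). Nanog went to 9.1, 10.6 and 8.25 (-1.68 ± 0.12, adjusted p = 8.5e-07), and Sall4 to 160, 162 and 135 (-0.69 ± 0.077, adjusted p = 2.5e-05). No array of the older females reached the younger ones for these 3 factors. Dppa3 went to 146, 152 and 106 (-1.81 ± 0.14, adjusted p = 1.1e-06). Dppa5a kept 46% of its earlier mean, at 761, 814 and 840 (-1.12 ± 0.069, adjusted p = 2.5e-07). At 11.5 dpc 64.4% and 86.5% of all probe sets lay at or below the female means of these markers.

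Utf1 departed from the other early genes. In females it read 162, 191 and 116 at 11.5 dpc, 309% of its mean at 10.5 dpc (1.59 ± 0.19, adjusted p = 4.5e-05). Dazl rose to 149, 180 and 180, or 400% of its earlier mean (1.98 ± 0.13, adjusted p = 4.6e-07). For both genes each older array was above each younger one. Ddx4, the other later gene, fell to 55, 60.1 and 44.8 (-1.48 ± 0.18, adjusted p = 4.1e-05), and these values did not overlap with those at 10.5 dpc. Kit fell, on its brighter probe set alone, to 136, 88.3 and 112 (-1.99 ± 0.14, adjusted p = 6.2e-07). Ifitm3 rose to 1320, 1210 and 1240 (0.52 ± 0.063, adjusted p = 4.9e-05).

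In all, 7 of the 10 genes fell and 3 rose in females, against 27.0% of all genes called lower and 22.3% called higher (42.7% and 19.8% with each array centred on its median). Of these, 6 fell and 2 rose at least 2-fold, and the median change was -1.30 beside -0.01 over all genes. Among all 18193 genes, 1371 were called at least 2-fold lower and 1046 at least 2-fold higher. The neural genes moved between the same arrays, from sums of 7620 to 7950 down to 337 to 393, with 6 of 7 lower and 0 higher. Somatic gonadal sums went from 12700 to 13000 down to 8860 to 9130, with 2 of 6 genes higher and 4 lower. The summed blood genes, again mostly globin, rose to 15700 to 16100 (5 of 12 higher, 1 lower). Of 10 endothelial genes 4 were lower and 0 higher, with sums of 1550 to 1650. The actin 3′ to 5′ ratio also differed between these groups, as given above. The part of any of these in the falls and rises of the 10 genes was not tested.

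In males Utf1, Dazl, Ddx4, Ifitm3 and Dppa5a rose over the same day, Nanog and Kit fell, and Pou5f1, Dppa3 and Sall4 did not pass. Pou5f1 stood at 33.8, 37.2 and 38 at 11.5 dpc, which overlapped with the values at 10.5 dpc, and its change of -0.18 ± 0.12 did not pass (adjusted p = 0.24, 95% interval -0.45 to 0.09). Without replicate 2 of the males at 10.5 dpc, the dimmest of its group, the change was -0.32 with an adjusted p = 0.022. Dppa3, at 103, 86.5 and 88, also overlapped with the earlier age (-0.29 ± 0.14, adjusted p = 0.1). It passed without replicate 2 of the males at 10.5 dpc (-0.39, adjusted p = 0.05) or replicate 3 of the females at 11.5 dpc (-0.29, adjusted p = 0.031). It also passed with each array centred on its median (-0.34, adjusted p = 0.047) or quantile-normalized again (-0.36, adjusted p = 0.05). Sall4 stood at 156, 137 and 157, below all earlier arrays, but its change of -0.19 ± 0.077 did not pass (adjusted p = 0.067). It passed with each array centred on its median (-0.24, adjusted p = 0.018) or without replicate 3 of the females at 11.5 dpc (-0.19, adjusted p = 0.025). It also passed when quantile-normalized again (adjusted p = 0.014) and with the mean over all probe sets of the gene (0.0086). The same held with probe sets lacking a group mean of at least 50 left out, and with only the 2 groups compared (0.046 each). Nanog fell to 9.61, 9.52 and 6.81 (-0.50 ± 0.12, adjusted p = 0.0068). Dppa5a went up instead, to 632, 647 and 612, without overlap (0.72 ± 0.069, adjusted p = 9.3e-06).

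The later genes rose in males. Dazl read 87.1, 108 and 111 at 11.5 dpc, all above the younger arrays (1.98 ± 0.13, adjusted p = 5.5e-07). Ddx4 read 79.9, 82.9 and 83.3, also clear of the younger arrays (0.64 ± 0.18, adjusted p = 0.013). Utf1 rose to 91.2, 101 and 97.2 (2.21 ± 0.19, adjusted p = 4.0e-06), and by 0.75 ± 0.12 on its second probe set. Ifitm3 rose to 686, 686 and 665 (1.30 ± 0.063, adjusted p = 5.2e-08), and Kit fell, on this probe set, to 119, 108 and 105 (-0.54 ± 0.14, adjusted p = 0.0086). With 5 rises, 2 falls and 3 genes not called, the count stood against 23.3% of all genes higher and 29.7% lower (21.9% and 48.7% with each array centred on its median). The median was 0.23 for the 10 and -0.05 for all genes. With each array centred on its median, or quantile-normalized again, 4 fell, Dppa3 and Sall4 being added. The same 4 fell without replicate 3 of the females at 11.5 dpc. Without replicate 2 of the males at 10.5 dpc 4 fell as well, but Pou5f1 and Dppa3 were those added. Markers of other cell types moved between the same arrays. Of the endothelial genes 6 of 10 were higher and 0 lower at 11.5 dpc, with sums going from 685 to 818 up to 1560 to 1640. Of the neural genes 6 of 7 were lower and 0 higher (sums of 2010 to 2140, then 379 to 397). Of the blood genes 6 of 12 were higher and 1 lower (1470 to 1580, then 6740 to 7120, mostly globin). The melanoblast sums went from 1010 to 1080 up to 1660 to 1730, with 2 of 6 genes higher and 2 lower. Somatic gonadal sums went from 15700 to 15800 down to 6000 to 6040, with 1 of 6 genes higher and 3 lower. The actin 3′ to 5′ ratio was lower at 11.5 dpc, as given above, and the part of any of these was not tested.

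At 11.5 dpc Dppa5a, Dppa3, Utf1, Ifitm3 and Dazl were lower in males, Ddx4 was higher, and Pou5f1, Nanog, Sall4 and Kit did not pass. For Pou5f1 the difference was -0.33 ± 0.12 and did not pass (adjusted p = 0.06), although no male array reached a female one; it passed when probe sets without a group mean of at least 50 were left out (adjusted p = 0.03). It also passed without replicate 2 of the females at 10.5 dpc (adjusted p = 0.045) and without replicate 2 or 3 of the males at 10.5 dpc (0.013 and 0.046), arrays that enter only through the shared spread. With limma fitted to only the 2 groups compared, the difference passed as well (-0.33 ± 0.054, adjusted p = 0.0047). The same held with the mean over all probe sets of each gene (adjusted p = 0.047). Nanog (-0.11 ± 0.12, adjusted p = 0.54, 95% interval -0.38 to 0.17), Sall4 (-0.02 ± 0.077, adjusted p = 0.84, interval -0.19 to 0.15) and Kit (0.00 ± 0.14, adjusted p = 0.98, interval -0.30 to 0.31) overlapped between the sexes. Dppa5a (-0.35 ± 0.069, adjusted p = 0.0023), Dppa3 (-0.52 ± 0.14, adjusted p = 0.012) and Ifitm3 (-0.89 ± 0.063, adjusted p = 2.0e-06) were lower in males without overlap. Dazl was lower in males (-0.73 ± 0.13, adjusted p = 0.0014), a value equal to that at 10.5 dpc on this probe set but not on the other one, where it was -1.81 ± 0.19 at 10.5 dpc (adjusted p = 2.8e-05) and -0.81 ± 0.19 at 11.5 dpc (adjusted p = 0.0073). Utf1 was lower too (-0.67 ± 0.19, adjusted p = 0.021). That call was lost without replicate 1 or 2 of the females (-0.63, adjusted p = 0.064, and -0.51, adjusted p = 0.075) or without replicate 1 or 3 of the males (-0.63 and -0.67, adjusted p = 0.064 and 0.05).

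Ddx4 was the exception, higher in males by 0.62 ± 0.18 at 11.5 dpc (adjusted p = 0.019), with 3 male arrays above the brightest female one. The call was lost without replicate 3 of the females (0.51, adjusted p = 0.073) and without replicate 2 or 3 of the males (0.62 and 0.61, both at an adjusted p = 0.051). In all, 5 of the 10 genes were lower and 1 higher in males at this age, 4 did not pass, and none of the 6 differed 2-fold. Over all 18193 genes 20.9% were lower and 19.0% higher, and 297 were called at least 2-fold lower and 337 at least 2-fold higher. The median was -0.34, beside -0.04. The endothelial sums were 1550 to 1650 in females and 1560 to 1640 in males, and the neural sums 337 to 393 and 379 to 397. Of the 10 endothelial genes 1 was higher in males, Kdr (means of 356 and 528, adjusted p = 5.9e-04), and 0 lower. Somatic gonadal sums were 8860 to 9130 in females and 6000 to 6040 in males, with 3 of 6 genes higher and 3 lower in males. Blood sums differed, at 15700 to 16100 in females and 6740 to 7120 in males (4 of 12 genes lower, 0 higher). They were mostly globin in both sexes, and the 4 genes were Gata1, Hbb-y, Hba-x and Hbb-bh1. The actin 3′ to 5′ ratio was lower in males and the Gapdh one higher, as given above. The part of any of these was not tested.

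**Figure D2:**
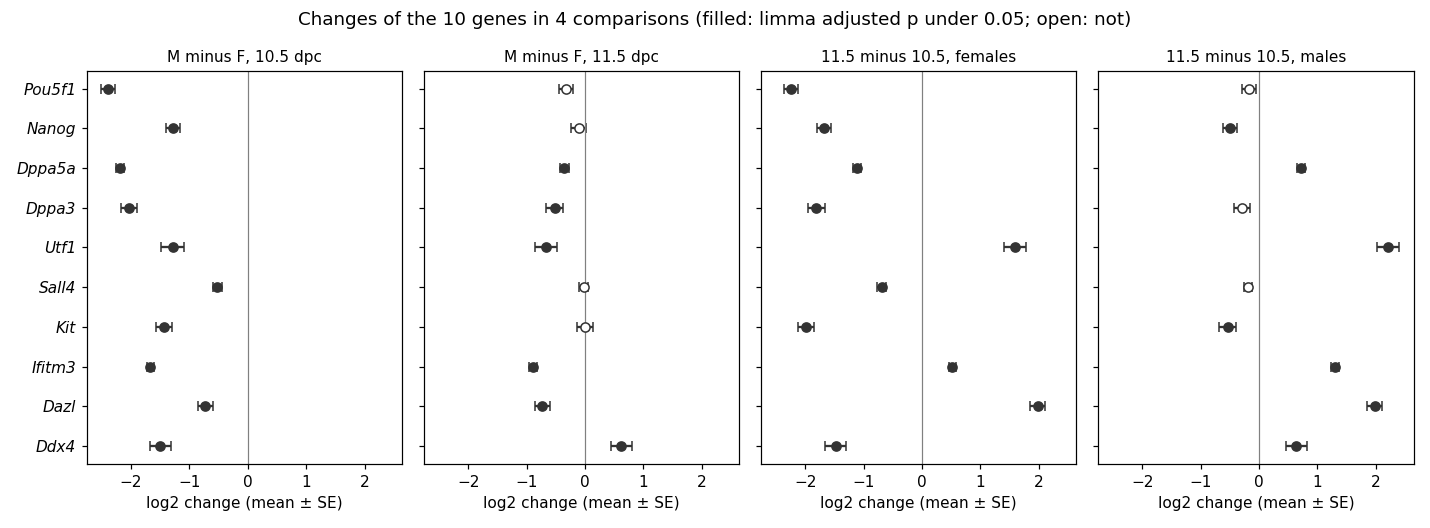
The log2 change (horizontal) of each of the 10 genes (vertical) in 4 comparisons, with the SE of the limma contrast over groups of 3 arrays; filled points passed an adjusted p of 0.05. All 10 points are filled and left of 0 for males minus females at 10.5 dpc, while Utf1, Ifitm3 and Dazl lie right of 0 in both age comparisons.

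The age change itself differed between the sexes for most of these genes. The male change minus the female change was positive and passed for 8 of the 10, and 0 passed in the negative direction, against 18.9% and 14.3% of all genes. Of the endothelial genes 7 of 10 passed with a positive and 0 with a negative difference (median 1.23), of the neural genes 5 of 7 and 0 (median 2.17) and of the blood genes 4 of 12 and 0 (median 0.08), while of the somatic gonadal genes 0 of 6 were positive and 5 negative; their part was not tested. The largest differences among the 10 genes were those of Ddx4 (2.12 ± 0.25, adjusted p = 1.2e-04), which fell in females and rose in males, Pou5f1 (2.06 ± 0.17, adjusted p = 1.2e-05) and Dppa5a (1.84 ± 0.098, adjusted p = 7.7e-07). All 4 groups enter this difference, so it rests on the same arrays as the comparisons above. Dazl had a difference of 0.00 ± 0.19 on its brighter probe set (95% interval -0.42 to 0.42). Utf1 had 0.62 ± 0.27 and did not pass (adjusted p = 0.13).

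Ordered by level, 7 of the 10 genes were highest in females at 10.5 dpc and the other 3 in females at 11.5 dpc. For Pou5f1 the remaining groups followed at means of 45.9, 41.7 and 36.3 for females at 11.5, males at 10.5 and males at 11.5 dpc, and the males at 10.5 dpc overlapped with both neighbours. Dppa3 had the same order, with means of 135, 114 and 92.4, and again males at 10.5 dpc overlapped with both neighbours. For Nanog and Sall4 the order after females at 10.5 dpc was males at 10.5 dpc, females at 11.5 dpc and males at 11.5 dpc, and the last 2 overlapped. On their brightest probe sets Dazl and Utf1 had one order, females at 11.5, males at 11.5, females at 10.5 and males at 10.5 dpc, with no overlap between neighbours. On the second probe set of each, the middle groups changed places and overlapped, with means for females at 10.5 and males at 11.5 dpc of 43.3 and 39.3 for Dazl and 47.9 and 46 for Utf1. Ddx4 fell at neither end with them: females at 10.5 dpc led at 151, males at 11.5 dpc followed at 82.1, and the 2 lowest groups, at 53.3 and 53.2, overlapped.

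Across the 12 arrays the log2 levels of Pou5f1 and Dppa3 had a Pearson r of 0.981, those of Nanog and Kit 0.960, and those of Utf1 and Dazl 0.968. Dazl and Pou5f1 had an r of -0.304, and Dazl and Ddx4, the pair of later genes, -0.163. These values describe 12 arrays in 4 groups, which share the arrays, their amplification and the group differences, and carry no test. Among 4093 other genes with a group mean of at least 100 and group means at least 1 apart on the log2 scale, the 5 most like Pou5f1 were Pantr1 (r = 0.9883), Pcp4 (0.9850), Pimreg (0.9839), Hoxb6 (0.9839) and Sall1 (0.9835). Pantr1, for example, had means of 307, 31.7, 28.4 and 24.5 in females and males at 10.5 dpc and females and males at 11.5 dpc. The 5 most like Dppa3 were Pimreg (0.9902), 2610528A11Rik (0.9866), Hoxb6 (0.9849), Ssu72 (0.9841) and Pttg1 (0.9838).

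Where a gene had more than 1 probe set, they did not always give one answer. The 2 probe sets of Dazl rose in both sexes with age: 1419542_at went from 43.2, 46.1 and 40.7 to 69.5, 69 and 69.6 in females and from 10.2, 8.72 and 17.3 to 37.3, 35.2 and 45.5 in males. On that probe set the male age change exceeded the female one by 1.00 ± 0.27 (adjusted p = 0.019), where the brighter probe set gave 0.00. A second probe set of Utf1, 1443786_at, also rose in females (0.82 ± 0.12, adjusted p = 2.1e-04) and in males (0.75 ± 0.12, adjusted p = 4.0e-04), and was lower in males at both ages. The third, 1458333_x_at, stayed between 7.23 and 7.46 on all arrays. The weaker Sall4 probe set, 1424153_s_at, lay between 8.12 and 12.1, and at 10.5 dpc its difference of -0.16 ± 0.063 did not pass (adjusted p = 0.092). On it the male age change minus the female one was -0.02 ± 0.09 (adjusted p = 0.86), where the brighter probe set gave 0.50.

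Kit was the gene whose probe sets went apart. The dimmer one, 1415900_a_at, read 17.4, 18.1 and 17.4 in females and 17.9, 17.3 and 16.9 in males at 10.5 dpc, with a difference of -0.02 ± 0.16 (adjusted p = 0.93). In males at 11.5 dpc it read 35.5, 27.4 and 32.6, a rise of 0.83 ± 0.16 (adjusted p = 0.0013), where the brighter probe set fell by 0.54. With the mean of both probe sets the age change in males was 0.15 (adjusted p = 0.35), and the sex difference at 11.5 dpc was 0.37 in favour of males (adjusted p = 0.042). At 11.5 dpc the dimmer probe set alone was higher in males by 0.74 ± 0.16 (adjusted p = 0.0039), where the brighter one gave 0.00. With age in females the dimmer probe set changed by 0.07 ± 0.16 (adjusted p = 0.86), where the brighter one gave -1.99. The direction of the age change of Kit in males therefore depended on the probe set. So did the calls of its sex difference at both ages and of its age change in females. Melanoblast genes, listed because Kit is active in pigment cell precursors, moved between the same arrays. Their sums were 641 to 728 in females and 1660 to 1730 in males at 11.5 dpc, where 2 of 6 were higher in males and 0 lower: Dct, an enzyme of melanin synthesis, by 1.69 ± 0.067 (adjusted p = 5.2e-08), and Mitf, the transcription factor of the pigment lineage, by 0.61 ± 0.14 (adjusted p = 0.0057). Both also rose with age in males, by 0.82 ± 0.067 and 0.80 ± 0.14 (adjusted p = 2.6e-06 and 7.6e-04), and Mlana, Tyr and Pmel had means under 50 in all 4 groups. Over all genes 19.0% were higher and 20.9% lower in males at 11.5 dpc. The part of melanoblasts in the Kit values was not tested.

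**Figure D3:**
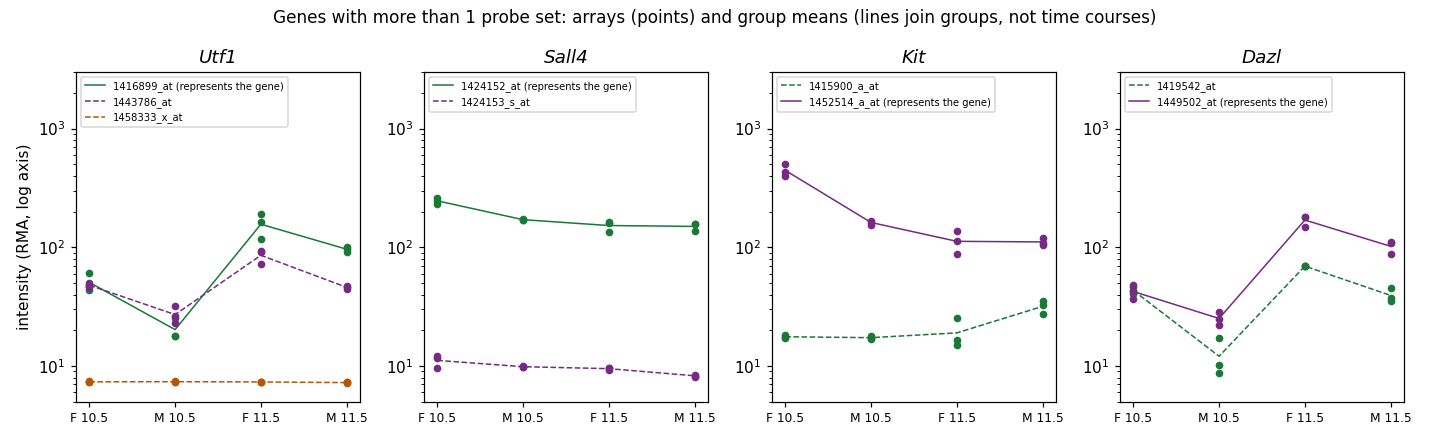
Intensity (vertical, log axis) of every probe set of Utf1, Sall4, Kit and Dazl in the 4 groups (horizontal), with 1 point per array, a line through the group means, solid for the probe set that represents the gene and dashed for the others. Both Dazl probe sets have their highest mean in females at 11.5 dpc and their lowest in males at 10.5 dpc, and differ in the order of the other two groups; the brighter Kit probe set is highest in females at 10.5 dpc and 1415900_a_at in males at 11.5 dpc.

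Other genes of the early programme shared parts of this pattern. Of 20 measured genes of a list of further early germ cell and pluripotency genes, 12 were lower in males at 10.5 dpc and 0 higher, with a median of -0.57. Over all genes 22.8% were lower and 17.5% higher. In females 10 fell and 3 rose with age, beside 27.0% and 22.3% of all genes (42.7% and 19.8% with each array centred on its median). In males 4 fell and 2 rose, beside 29.7% and 23.3%. At 11.5 dpc 6 were lower and 1 higher in males, beside 20.9% and 19.0%. The largest differences of this list at 10.5 dpc were in Sox2 (-3.24 ± 0.072), which encodes a pluripotency factor also known from neural progenitors, Trim71 (-2.11 ± 0.055), an RNA-binding protein of embryonic cells, Zfp42 (-1.62 ± 0.14), the stem cell marker Rex1, and Dppa4 (-1.41 ± 0.056), a chromatin protein of pluripotent cells. With age in females, the changes were -3.95 ± 0.072 for Sox2, -2.86 ± 0.14 for Zfp42, -2.40 ± 0.055 for Trim71 and -2.30 ± 0.13 for Lin28a, which blocks the maturation of let-7 microRNAs. Prdm1 and Tfap2c, which specify primordial germ cells, had means under 50 in all 4 groups, as did Esrrb, Dppa2, Fgf4, Tcl1 and Tex19.1. The 3 that rose with age in females were Klf4 (1.35 ± 0.038), Klf2 (0.95 ± 0.074) and Dnd1 (0.35 ± 0.078, adjusted p = 0.0041). Of these, Klf4 and Dnd1 were lower in males at 10.5 dpc (-0.73 ± 0.038 and -0.45 ± 0.078). Alpl, with group means of 74.5 to 79.3, passed in no comparison. The summed list is led by Klf4, which is also active in somatic cells, at 4940 and 2980 in females and males at 10.5 dpc and 12600 and 8200 at 11.5 dpc.

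Of 16 measured later germ cell genes other than Dazl and Ddx4, 12 to 13 had means under 50 in each group, where the median intensity of an array was 41.06 to 43.74. Stra8 stood at 32.7 to 33.1 and Mael at 10.2 to 12 over the 4 group means, and Tdrd5 (3.79 to 3.9) lay under the table's 5th percentile of 4.5. At 10.5 dpc 2 were lower and 1 higher in males, beside 22.8% and 17.5% of all genes. Sycp3, a component of the meiotic chromosome axis, was lower in males (-1.80 ± 0.13, adjusted p = 1.8e-06), with means of 249 in females and 70.7 in males. Taf7l, a germ cell relative of a general transcription factor subunit, was higher in males by 2.07 ± 0.22 at that age and rose by 3.57 ± 0.22 in females, to 388, the highest of the 4 groups. Over the list, 1 gene rose and 4 fell in females, beside 22.3% and 27.0% of all genes. In males 0 rose and 4 fell, beside 23.3% and 29.7%. At 11.5 dpc 5 were lower and 0 higher in males, beside 20.9% and 19.0%.

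Genes that guide and receive migrating germ cells were measured at both ages. Kitl, the ligand of Kit made by somatic cells, was bright in all groups, with means of 5760 and 5150 in females and males at 10.5 dpc and 5100 and 4450 at 11.5 dpc. It was lower in males by a small margin at 10.5 dpc (-0.16 ± 0.047, adjusted p = 0.023). Cxcr4, the chemokine receptor with which germ cells sense Cxcl12, was dim at 10.5 dpc, at 8.92 and 7.51, and rose in females to 100 (3.36 ± 0.093, adjusted p = 1.0e-09) and in males to 18.1. The adhesion genes Cdh1 (-2.09 ± 0.096) and Epcam (-2.05 ± 0.12), which germ cells share with epithelia, were lower in males at 10.5 dpc, as were the relatives of Ifitm3, Ifitm2 (-0.82 ± 0.047) and, beyond the 4 largest, Ifitm1 (-0.43 ± 0.039). Of the 10 genes of this list 6 were lower and 1 higher in males at each age. Over all genes 22.8% were lower and 17.5% higher at 10.5 dpc, and 20.9% and 19.0% at 11.5 dpc. With age 5 rose and 5 fell in females, beside 22.3% and 27.0% of all genes. In males 7 rose and 3 fell, beside 23.3% and 29.7%. Of the 6 melanoblast genes 1 was higher and 0 lower in males at 10.5 dpc.

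**Figure D4:**
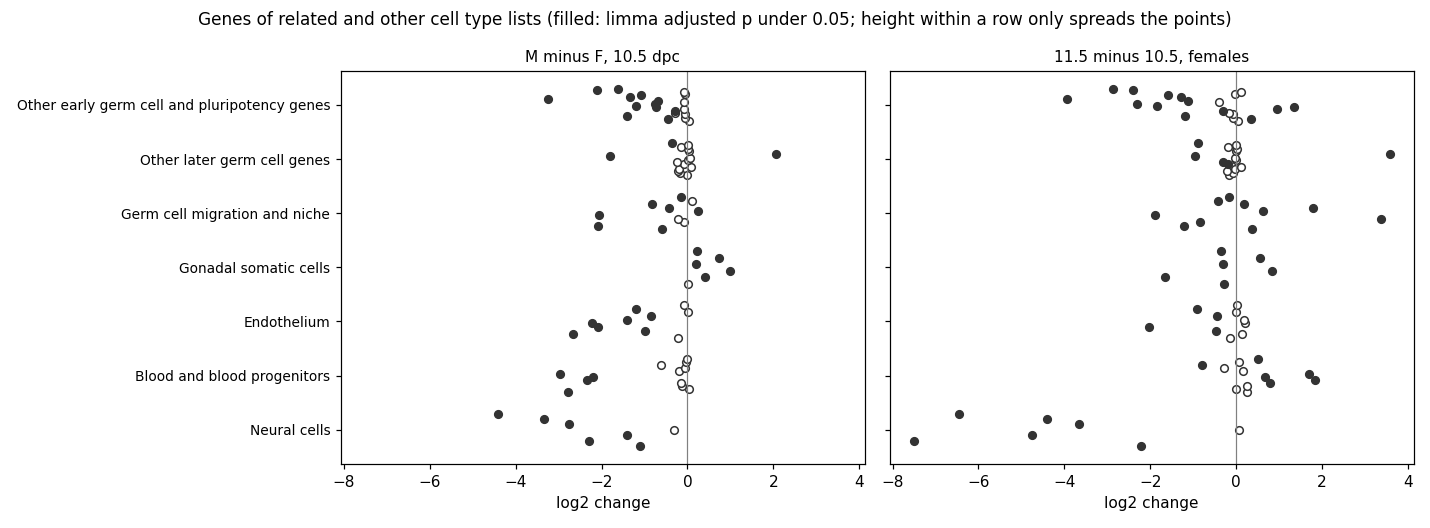
The log2 change (horizontal) of each gene of 7 lists (vertical; the height within a list only spreads the points) for males minus females at 10.5 dpc and for 11.5 minus 10.5 dpc in females, 2 comparisons that share the female arrays at 10.5 dpc; filled points passed a limma adjusted p of 0.05. Genes of the early list, endothelium, blood and neural cells lie mostly left of 0 in the first panel, and the somatic gonadal genes at or right of it.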

How the data were processed

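Messenger RNA of 12 samples was read on Affymetrix mouse arrays, 1 array per sample, after double amplification, per the labels. The deposited values are intensity values that the authors made with RMA (background correction, quantile normalization and a summary per probe set), as the submitters' processing notes record without a version; how a linear scale was reached is not stated. Quantile normalization hides changes shared by most transcripts, and RMA draws dim probe sets together. The 64 control probe sets were left out. Intensities were turned into log2(value + 1), and limma version 3.58.1 (R version 4.3.3) was fitted to all 12 arrays with 1 mean per group, 8 residual and 1.89 prior degrees of freedom, and tested on simulated data. No low-value filter was used, so all 10 genes were tested; 9 would pass a group mean of at least 50. Precision is limited by the number of arrays, 3 per group, and no detection calls were used.

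A gene was represented by its brightest probe set of those that name it alone, avoiding the kinds that can match other genes. Symbols came from the platform annotation and were updated by Entrez identifier with RefSeq's GRCm38.p6 table, which 34741 probe sets matched; of those tested, 34945 had 1 symbol, 932 several and 9160 none. Genes named beside the 10 were at most 4 per list and comparison, the largest changes among those called, and the 5 most like Pou5f1 and Dppa3. Kitl, Ifitm1, Klf2, Dnd1, Alpl and examples of dim genes were named after their values were seen. The 9 lists were early and later germ cell genes, migration and niche, gonadal somatic cells, endothelium, blood, melanoblasts, neural cells and Y-linked genes. The 10 genes and these lists were chosen with earlier results of these data known. Replicate numbers did not pair the arrays (deviations of same-numbered arrays correlated with r from -0.14 to 0.08).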

Additional observations from a re-analysis of the deposited data

Results flagged for a closer look

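The change from 10.5 to 11.5 dpc differed between the sexes for 8 of the 10 genes by limma's test of the male age change minus the female one (log2 scale, n = 3 arrays per group, adjusted over all probe sets). The values were 2.06 for Pou5f1 (adjusted p = 1.2e-05), 1.19 for Nanog (4.8e-04), 1.84 for Dppa5a (7.7e-07), 1.51 for Dppa3 (2.0e-04) and 0.50 for Sall4 (0.0058). They were 1.45 for Kit (3.0e-04), 0.78 for Ifitm3 (1.0e-04) and 2.12 for Ddx4 (1.2e-04). Ddx4 and Dppa5a went in opposite directions in the sexes, Ifitm3 rose in both, and Nanog fell in both. Kit fell in both on its brighter probe set alone. Over all genes 18.9% were called positive and 14.3% negative in this comparison, and of the endothelial genes 7 of 10 were positive and 0 negative, of the neural genes 5 of 7 and 0, and of the blood genes 4 of 12 and 0; their part was not tested. For Kit the second probe set gave 0.76 (adjusted p = 0.027), but through other changes. It was nearly level in females (0.07, adjusted p = 0.86) and rose in males (0.83, adjusted p = 0.0013). For Sall4 the second probe set, dim on all arrays, gave -0.02 and did not pass (adjusted p = 0.86).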

How the results depend on the processing

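Each of the 50 changes (10 genes in 5 comparisons) was recomputed with 12 arrays left out in turn and under 11 other settings, as far as each could be fitted: Nanog has no value with the filter on dim probe sets, and the difference of age changes none with 2 groups. Of 1135 such values, 1109 kept their call or lack of one, 7 lost a call, 18 gained one and 1 turned the direction of a called change; these changes fell on 8 of the 50. Of the 1109, 15 had the opposite sign with no call under either setting. The called value that turned was the age change of Kit in males, 0.15 with the mean of both probe sets. Centring, or a repeated quantile normalization, moved the count called in males with age from 7 to 9. Each count of genes called in both directions together stayed within 1.5 times its value; by direction, the falls with age in males went from 2 to 4 under the settings named beside that result, and the count higher in males at 11.5 dpc from 1 to 2 with the mean over probe sets and to 0 without replicate 3 of the females or replicate 2 or 3 of the males at that age. With the replicate block the counts called were 10 and 6 between the sexes at 10.5 and 11.5 dpc, 10 and 7 with age in females and males, and 8 for the difference of age changes, as without it; 5 of 12 arrays correlated best with their own number. With each array centred, the median change of all genes lay between -0.10 and -0.01.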
